A study of Mus musculus with 3 samples.

Results

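The NRF2 antioxidant response was followed through 10 genes in single-nucleus RNA sequencing of mouse abdominal aorta. The genes were taken by symbol from the 33696 gene features of each deposited matrix, and each of the 10 symbols matched 1 feature: Nfe2l2 (ENSMUSG00000015839), Keap1 (ENSMUSG00000003308), Bach1 (ENSMUSG00000025612), Hmox1 (ENSMUSG00000005413), Nqo1 (ENSMUSG00000003849), Gclc (ENSMUSG00000032350), Gclm (ENSMUSG00000028124), Slc7a11 (ENSMUSG00000027737), Txnrd1 (ENSMUSG00000020250) and Srxn1 (ENSMUSG00000032802). All mice were ApoE-/- on C57Bl/6, lacked working apolipoprotein E and so develop atherosclerosis, and ate a high-fat diet for 20 weeks. Over the same 20 weeks 1 group breathed room air, and the others were exposed to cigarette smoke and had either no abdominal aortic aneurysm (the smoke library) or an aneurysm (the aneurysm library). Each group is 1 library. How many animals went into a library, and their age and sex, was not given in the sources used here. Frozen aortae were lysed, and nuclei were purified with anti-nucleus beads, so shares of nuclei may also depend on that capture. The comparison of smoke with room air asks how the aortic response to smoke differs without an aneurysm, and the comparison of aneurysm with smoke asks what accompanies the aneurysm among smoke-exposed animals. With 1 library a group there is no replicate and no test, every difference is one between libraries, and the intervals given are 95% intervals that cover counting error only.

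NRF2, the product of Nfe2l2, is a transcription factor that drives antioxidant and detoxifying genes. In unstressed cells KEAP1 binds NRF2 and directs its destruction, and oxidants and electrophiles such as those in tobacco smoke modify KEAP1 and let NRF2 accumulate, so that NRF2 activity is set mainly at the protein level. BACH1 occupies the same DNA elements as a repressor until haem removes it, and Hmox1 is its best known target. The other targets followed here make glutathione (Gclc, Gclm and the cystine importer Slc7a11), keep thioredoxin and peroxiredoxins reduced (Txnrd1, Srxn1) or reduce quinones (Nqo1).

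The room air, smoke and aneurysm libraries held 73891039, 117247048 and 15634797 UMIs in 13189, 14859 and 7348 barcodes, and 11022, 14001 and 5707 nuclei passed the filters. The median nucleus held 4058.5, 6225 and 1443 UMIs, so the aneurysm library was the shallowest. Pairs of libraries shared between 17 and 36 barcodes among the nuclei kept. The doublet caller Scrublet called 0, 304 and 0 barcodes, so it did not work in 2 of the libraries, and doublets remain in the data. Nuclei were clustered without regard to group and named from marker genes, and a class is written as "-like" because the name rests on markers alone. Macrophage-like nuclei numbered 3648, 4565 and 658, endothelial-like 1754, 1862 and 593, smooth muscle-like 871, 1086 and 448, and fibroblast-like 468, 650 and 717, in the order room air, smoke and aneurysm that is used throughout. In each of these classes and libraries none of the class's own markers was at 0. Clusters 2 and 11 carried no name. Cluster 2 was led by F10, Cxcl2 and Slc7a11 itself and held 1462, 1546 and 105 nuclei. By markers it was nearest the macrophage class, with a score of 1.59 and the monocyte class next at 1.21. Macrophage markers summed to 3830, 4772 and 4301 CPM in cluster 2 and to 6114, 7310 and 5963 CPM in macrophage-like nuclei. Cluster 11 was led by Reln and Tll1 and held 110, 255 and 504. By markers it was nearest the endothelial class, with the lymphatic endothelial marker Reln among its top genes. Endothelial markers summed to 8005, 9415 and 9250 CPM in cluster 11 and to 7558, 8163 and 8345 CPM in endothelial-like nuclei. Levels are UMIs of a gene summed over the nuclei of a class, scaled by the total UMIs of that class to CPM, the usual unit for counts relative to their total. Long genes catch more UMIs in nuclei, so levels are compared between classes and libraries for the same gene and never between genes.

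NRF2 with its small MAF partners and BACH1 bind the antioxidant response element, whose core is TGACNNNGC (N is any base). The core was searched on both strands in RefSeq promoter windows of the GRCm38.p6 build, from 250 bases before to 50 bases after a gene's start. Windows were found for 8 of the 10 genes, and Hmox1 and Gclc are named only. The core was present in 4 of the 8 (Nfe2l2, Gclm, Txnrd1 and Srxn1), against 14.0% of 27025 genes with a window. In Srxn1 the match lay 29 to 37 bases after the start. The stricter element TGACTCAGC was in none of the 8, against 0.503% of genes. A match is a run of letters and does not show binding, and no match says only that the letters are absent from this window. The 3 stretches before the start are shown because their genes turn up again below as the regulator itself, the modifier subunit of glutathione synthesis and thioredoxin reductase. Capitals mark the core, which in Gclm and Txnrd1 lies on the opposite strand and reads GCNNNGTCA. All are written 5′ to 3′ on the gene's strand.
Nfe2l2, chr2:75704865-75704913, minus strand: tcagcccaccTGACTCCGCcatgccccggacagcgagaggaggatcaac
Gclm, chr3:122245393-122245461, plus strand: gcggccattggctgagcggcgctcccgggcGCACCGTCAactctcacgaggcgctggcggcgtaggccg
Txnrd1, chr10:82859084-82859152, plus strand: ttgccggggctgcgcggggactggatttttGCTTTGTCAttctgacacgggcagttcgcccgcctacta
The core begins 240 bases before the start in Nfe2l2, 134 in Gclm and 92 in Txnrd1.

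Classes were put in order of level for each gene. The unnamed clusters 1 (shallow) and 10 were left out of these orders, and values of theirs that lie higher are given apart. Of the regulators, Nfe2l2 was most abundant in myeloid nuclei. In room air its level was 536.0 CPM (516.8 to 555.7) in cluster 2, 464.7 CPM (456.8 to 472.6) in macrophage-like and 279.6 CPM (256.0 to 304.7) in dendritic-like nuclei, and these neighbours did not overlap. Left out of that order, clusters 1 and 10 held 438.2 and 385.3 CPM. Endothelial-like nuclei held 106.3 CPM and smooth muscle-like nuclei 100.6 CPM. The same classes led in smoke. In the aneurysm library cluster 2 held 724.8 CPM (614.1 to 849.6), macrophage-like nuclei 291.4 CPM (263.6 to 321.3) and fibroblast-like nuclei 188.8 CPM (166.6 to 213.0), again without overlap. Keap1, the adaptor that holds NRF2 in check, had no break in its order, since in each library every class overlapped the next, but classes farther apart did differ. In room air it was 50.7 CPM (32.2 to 76.1) in cluster 11, 27.8 CPM (25.9 to 29.8) in macrophage-like and 21.0 CPM (18.7 to 23.4) in endothelial-like nuclei, and none of these 3 overlapped. Across the libraries macrophage-like Keap1 stood at 27.8, 26.5 and 33.3 CPM and endothelial-like Keap1 at 21.0, 23.2 and 27.5 CPM. Bach1, the repressor, was highest in room air in dendritic-like nuclei (179.7 CPM) and cluster 2 (170.6 CPM), which overlapped, and lower in macrophage-like nuclei at 130.0 CPM (125.8 to 134.2). Endothelial-like nuclei had 53.6, 53.9 and 49.8 CPM of Bach1, with overlapping intervals in the 3 libraries.

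**Figure D1:**
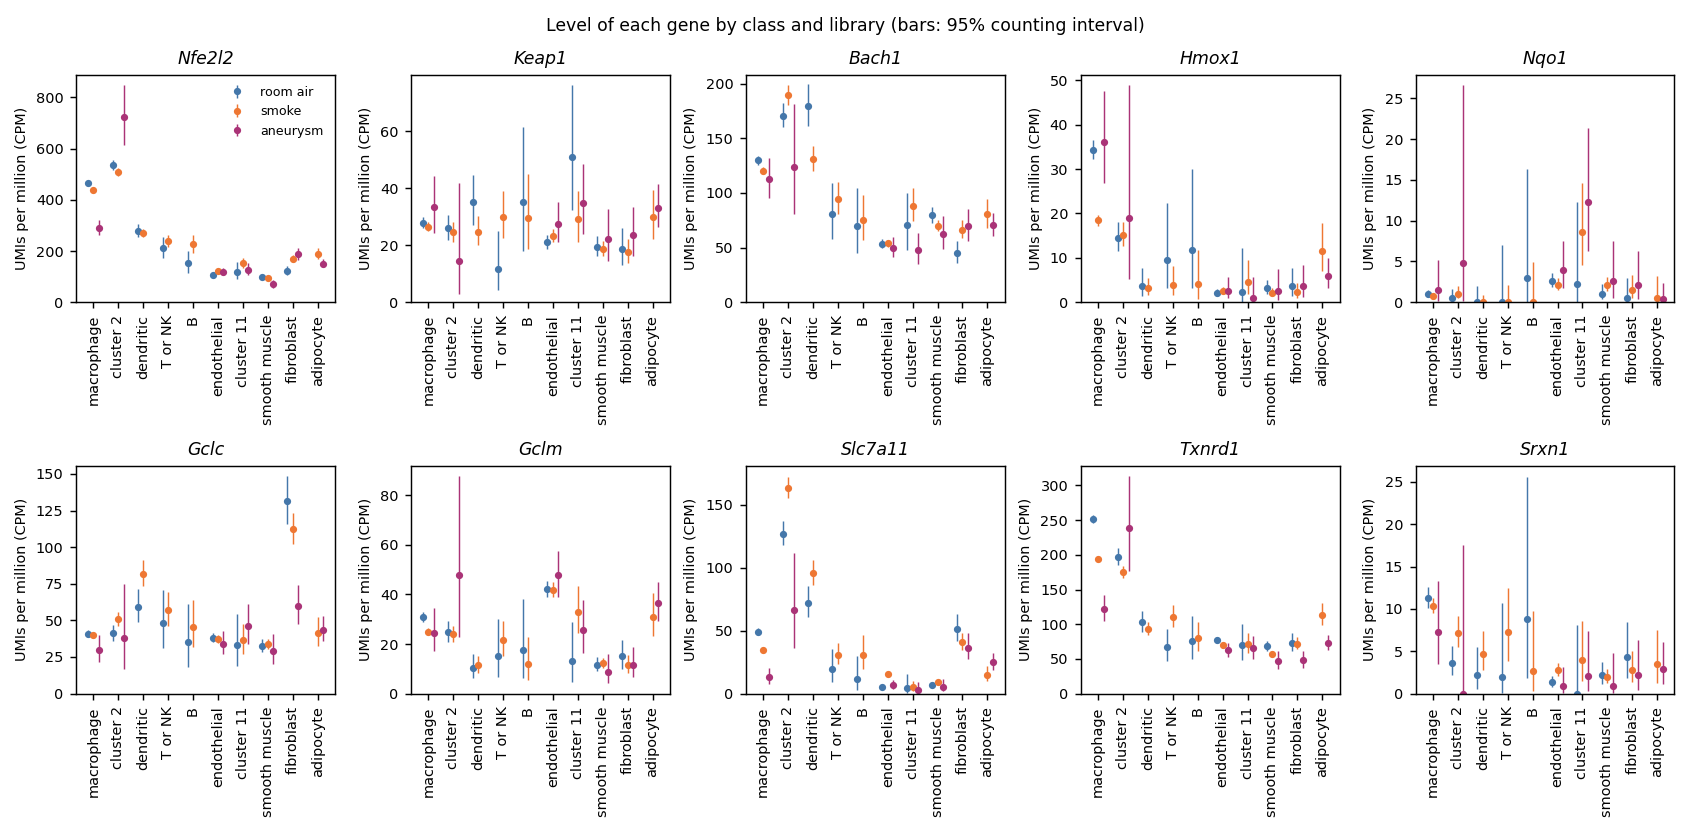
Level of each of the 10 genes (CPM, linear axis) by class, with 1 point for each library and bars for the 95% counting interval. Classes with under 50 nuclei in a library have no point, and cluster 1, where single nuclei held many UMIs of Hmox1 and Slc7a11, is not drawn. In room air, among the classes drawn, Hmox1 is highest in macrophage-like nuclei (34.4 CPM), Gclc in fibroblast-like nuclei (131.4 CPM) and Slc7a11 in cluster 2 (127.1 CPM).

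In room air, among the classes put in order, Hmox1 and Txnrd1 were highest in macrophage-like nuclei, Gclc in fibroblast-like and Gclm in endothelial-like nuclei. Hmox1, the stress-inducible haem oxygenase, was at 34.4 CPM (32.3 to 36.6) in macrophage-like nuclei in room air, above cluster 2 at 14.6 CPM (11.6 to 18.1), while in smoke and in the aneurysm library these 2 overlapped. In the vessel wall classes Hmox1 stood near the level that free macrophage RNA could give. Endothelial-like nuclei held 5.89%, 14.2% and 7.25% of the macrophage-like level of Hmox1, and the median of 14 macrophage markers in the same nuclei was 10.0%, 11.8% and 3.51%, which gauges free macrophage RNA. In smooth muscle-like nuclei the Hmox1 shares were 9.28%, 11.7% and 7.12% against marker medians of 12.5%, 13% and 5.56%. At least 1 Hmox1 UMI was found in 1.65%, 2.202% and 1.012% of endothelial-like nuclei (median depth 6057, 8689 and 2628 UMIs) and in 14.6%, 11.9% and 5.47% of macrophage-like nuclei (5889.5, 8715 and 1557.5 UMIs). Txnrd1, cytosolic thioredoxin reductase, was also highest in macrophage-like nuclei in room air, at 251.5 CPM (245.7 to 257.4), then cluster 2 at 197.2 CPM and dendritic-like nuclei at 103.1 CPM, none overlapping. In the aneurysm library the order turned, with cluster 2 at 238.4 CPM (177.0 to 314.3) above macrophage-like nuclei at 122.2 CPM (104.5 to 142.1). Its endothelial-like share of the macrophage-like level, 30.8%, 36.4% and 51.1%, lay well above the marker medians.

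Gclc, the catalytic subunit of the enzyme that starts glutathione synthesis, was highest in fibroblast-like nuclei, with 131.4 CPM (115.5 to 148.9) in room air and 112.2 CPM (101.9 to 123.3) in smoke. Dendritic-like nuclei followed without overlap, at 59.4 CPM and 81.7 CPM. Gclm, its modifier subunit, took another place: endothelial-like nuclei led in room air with 42.1 CPM (38.9 to 45.5), and macrophage-like nuclei followed at 30.9 CPM (28.9 to 33.0). Cluster 1, left out of the order, held 46.3 CPM (34.4 to 61.1) of Gclm in room air, which overlaps the endothelial-like level, and 68.4 CPM (55.7 to 83.0) in smoke, above its 41.7 CPM. Slc7a11, the cystine importer, is one of the genes that define cluster 2, so its lead there is a description: 127.1, 163.5 and 66.8 CPM. It was next in dendritic-like (72.3 CPM), fibroblast-like (51.5 CPM) and macrophage-like nuclei (49.3 CPM) in room air, each overlapping its neighbour. Within dendritic-like nuclei Slc7a11 was concentrated in cluster 0, led by Ccr7 and Mreg, at 226.1 CPM in room air and 284.5 CPM in smoke, against 32.0 and 40.6 CPM in cluster 7. Gclc stood at 169.0 and 270.3 CPM in cluster 0 and at 30.6 and 26.6 CPM in cluster 7. Few nuclei carried the cluster 0 values, since 5 held 34 of 65 Gclc UMIs in room air and 150 of 247 in smoke. Srxn1, which repairs over-oxidised peroxiredoxins, was at 11.2, 10.4 and 7.23 CPM in macrophage-like nuclei and at 1.35, 2.74 and 0.874 CPM in endothelial-like nuclei. Nqo1, the quinone reductase often used as a marker of NRF2 activity, was scarce: macrophage-like nuclei held 30, 39 and 2 UMIs of it in all. Its level was highest in cluster 11 in smoke, 8.57 CPM (4.56 to 14.7), above endothelial-like nuclei at 2.18 CPM (1.55 to 2.98). Cluster 11 was also highest in the aneurysm library, at 12.3 CPM (6.33 to 21.4), where it overlapped the next.

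In macrophage-like nuclei the smoke library had less Hmox1, Slc7a11, Txnrd1 and Gclm than the room air library, and none of the 10 genes was at least 1.5-fold higher. Only Hmox1 passed 1.5-fold: 1 of 10 was lower, where 4.92% of 16572 genes tested were lower and 11% higher by that fold. Hmox1 stood at 34.4 CPM in room air and 18.4 CPM (17.3 to 19.7) in smoke, from 985 and 899 UMIs. The smoke library was lower, the intervals did not overlap, and the ratio was 0.537 (0.490 to 0.588). After each nucleus was thinned to 1000 UMIs, 2.49% of room air and 1.54% of smoke macrophage-like nuclei still held Hmox1, so room air was also higher at equal depth. No single nucleus carried the difference, since the 5 nuclei with most Hmox1 UMIs held 78 of 985 and 91 of 899.

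Slc7a11 went from 49.3 CPM (46.8 to 51.9) to 34.8 CPM (33.1 to 36.4), a ratio of 0.705 (0.657 to 0.757). Txnrd1 went from 251.5 CPM to 194.4 CPM (190.5 to 198.3), a ratio of 0.773 (0.749 to 0.797). Gclm went from 30.9 CPM to 24.8 CPM (23.4 to 26.3), a ratio of 0.804 (0.737 to 0.878). In all 3 the smoke library was lower and the intervals did not overlap, though the differences stayed under 1.5-fold. The regulators were nearer to equal, with ratios of 0.943 (0.923 to 0.964) for Nfe2l2, 0.925 (0.887 to 0.964) for Bach1 and 0.954 (0.873 to 1.04) for Keap1. Gclc, at 41.0 and 39.9 CPM, gave 0.974 (0.905 to 1.05), and the intervals for Srxn1 and Nqo1 also held 1. The median log2 ratio of the 10 genes was -0.22, and that of all genes tested was 0.02. Beside these values, the summed mitochondrial transcripts of macrophage-like nuclei were 6522 CPM in room air and 3091 CPM in smoke, and genes that respond to tissue handling, such as Fos and Jun, summed to 927.2 and 1514 CPM. The part of either in the result was not tested.

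**Figure D2:**
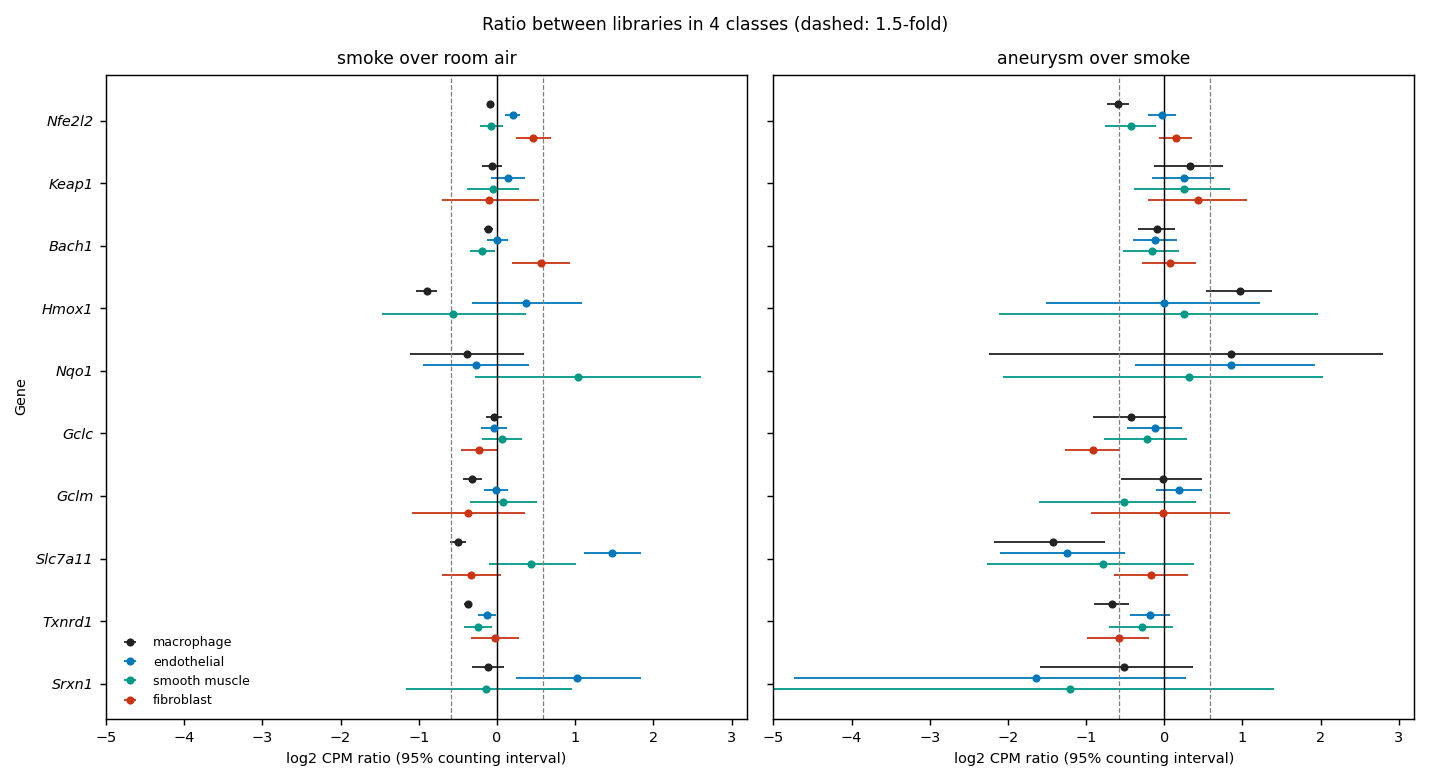
Log2 CPM ratio of each gene in 4 classes, smoke over room air at left and aneurysm over smoke at right, with bars for the 95% counting interval and dashed lines at 1.5-fold. Genes with under 20 UMIs in both libraries together are left out, the smooth muscle bar of Srxn1 at right runs past the axis, and macrophage-like Hmox1 lies left of the line for smoke over room air (ratio 0.537) and right of it for aneurysm over smoke (ratio 1.96).

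The lower Hmox1 in smoke sat in part of the macrophage-like nuclei. Cluster 12, led by Gpnmb, Cd5l and Atp6v0d2, genes typical of lipid-laden macrophages, held 1976 of the 3648 room air and 1751 of the 4565 smoke nuclei. There Hmox1 was 46.6 CPM in room air and 26.4 CPM in smoke, a ratio of 0.566 (0.511 to 0.627). In cluster 3 it was 16.4 and 10.96 CPM, a ratio of 0.668 (0.496 to 0.906). In cluster 5 it was 6.77 and 6.81 CPM and in cluster 19, led by F13a1, Cd163 and Mrc1, 27.0 and 28.2 CPM, and both intervals of the ratio held 1. The libraries thus differed in clusters 12 and 3 and overlapped in clusters 5 and 19, and whether the ratios differ between clusters was not tested.

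For Txnrd1, Slc7a11 and Gclm the difference was seen in cluster 12. Txnrd1 in cluster 12 was 303.9 and 236.6 CPM (ratio 0.779, 0.751 to 0.808), against 142.6 and 142.7 CPM in cluster 5 and 173.9 and 162.4 CPM in cluster 3. Slc7a11 in cluster 12 was 66.7 and 49.9 CPM (ratio 0.747, 0.691 to 0.809), against 24.8 and 25.8 CPM in cluster 3. Gclm in cluster 12 was 37.0 and 28.8 CPM (ratio 0.778, 0.700 to 0.865), against 18.1 and 19.5 CPM in cluster 5. For these 3 genes the room air library was higher in cluster 12 without overlap and overlapped the smoke library in clusters 3 and 5. In cluster 19, with 17, 8 and 4 UMIs of them in room air, the intervals of all 3 ratios held 1. Nfe2l2 itself was close in cluster 12, at 493.2 and 456.7 CPM. The mix of clusters differed as well. Cluster 12, where Txnrd1, Slc7a11 and Gclm were highest, held 1976 of 3648 room air nuclei and 1751 of 4565 smoke nuclei. The class ratios therefore mix levels within clusters with the shares of clusters, and the part of each was not tested.

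**Figure D3:**
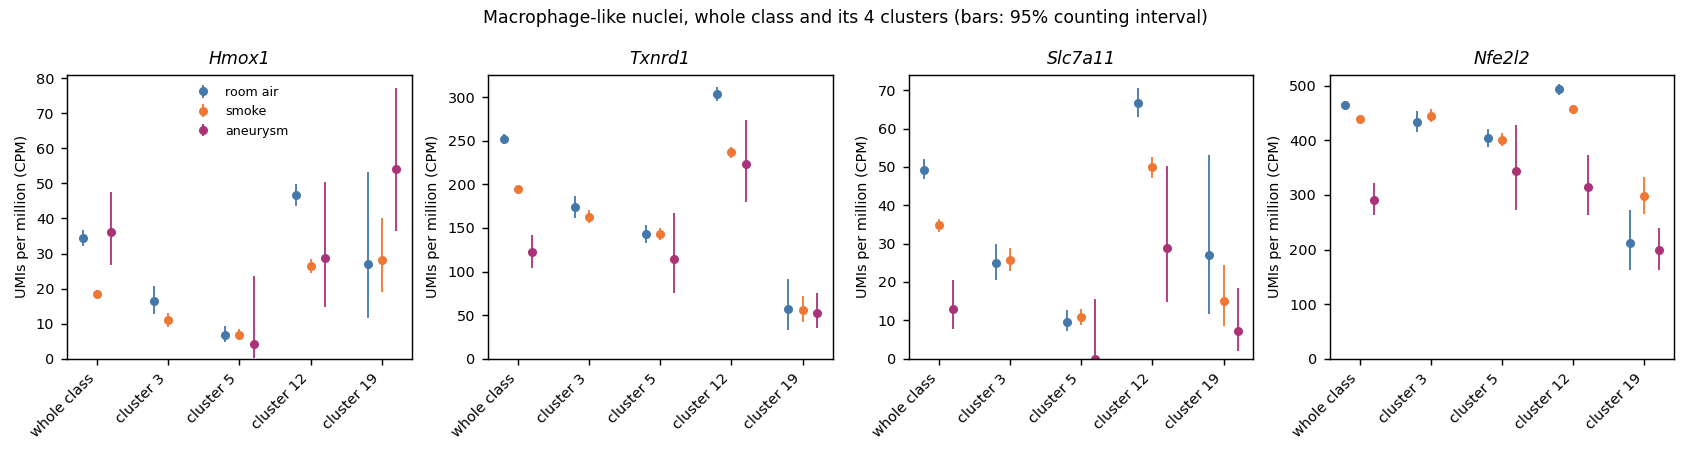
Levels (CPM, linear axis) of Hmox1, Txnrd1, Slc7a11 and Nfe2l2 in all macrophage-like nuclei and in their 4 clusters, with 1 point for each library and bars for the 95% counting interval. Room air lies above smoke in cluster 12 for Hmox1 (46.6 and 26.4 CPM) and the points coincide in cluster 5, and the aneurysm library has no point in cluster 3, where it had 49 nuclei.

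In endothelial-like nuclei 2 of 10 genes were at least 1.5-fold higher in smoke than in room air and none lower, where 13.8% of 15231 genes tested were higher and 3.43% lower. They were Slc7a11 and Srxn1. Slc7a11 stood at 5.60 CPM (4.46 to 6.94) in room air, 15.6 CPM (13.8 to 17.5) in smoke and 6.56 CPM (3.67 to 10.8) in the aneurysm library. Smoke was higher than both without overlap, and the ratio to room air was 2.78 (2.17 to 3.60). The number of nuclei with the transcript did not move with it: 64 of 1754 nuclei in room air and 63 of 1862 in smoke held a Slc7a11 UMI, and after thinning the shares were 0.834% and 0.488%. The excess lay in few nuclei. A single smoke nucleus held 84 of the 279 UMIs and 5 nuclei held 197, and without the 5 highest in each library 63 UMIs remained in room air and 82 in smoke. Without the single highest nucleus the ratio was 2.13, and after thinning it was 0.75, so the direction turned. All 5 smoke nuclei were in cluster 8, where the level went from 5.32 to 18.4 CPM, while in cluster 9 it went from 8.20 to 3.32 CPM.

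The 5 smoke nuclei were examined one by one, a look chosen after their values were seen. They held 84, 62, 30, 13 and 8 Slc7a11 UMIs. Endothelial markers summed to between 1070 and 7030 CPM in them, below the 8160 CPM of their class, and macrophage markers to between 88.3 and 2630 CPM, against 695 CPM. The nucleus with 84 UMIs also held 16 UMIs of monocyte markers, which is 817 CPM against 14.5 CPM in its class, and the other 4 held 1 at most. Their Scrublet scores stood between the 76.3 and 99.1 percentile of the endothelial-like nuclei in the smoke library. Whether these are mixed droplets was not tested.

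**Figure D4:**
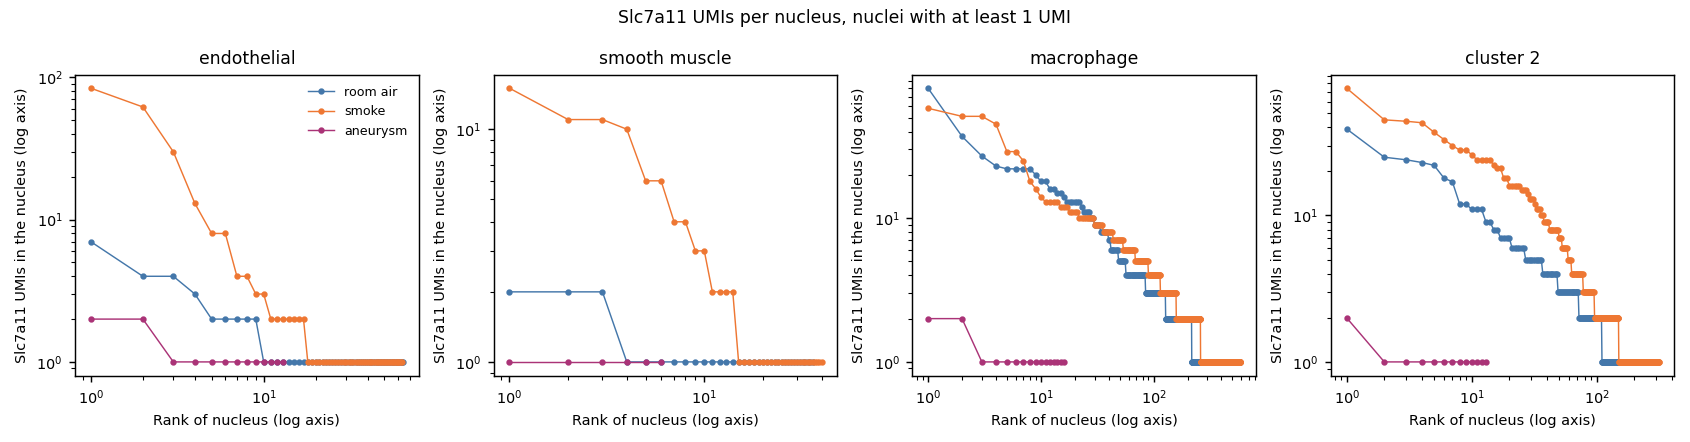
Slc7a11 UMIs in each nucleus with at least 1 UMI, against the rank of that nucleus (both axes logarithmic), in 4 classes and 3 libraries. In endothelial-like nuclei the smoke line starts at 84 UMIs and the room air line at 7, and both end at a similar number of nuclei (63 and 64).

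Srxn1 in endothelial-like nuclei came to 20 UMIs in room air and 49 in smoke, or 1.35 CPM (0.824 to 2.08) and 2.74 CPM (2.02 to 3.62). Smoke was higher, the level intervals overlapped slightly (up to 2.08 and from 2.02 CPM), and the ratio was 2.03 (1.18 to 3.60). The highest nucleus held 8 of the 49 UMIs. The endothelial-like share of the macrophage-like Srxn1 level was 12% in room air, near the 10.0% of the macrophage markers, and 26.4% in smoke, above their 11.8%. The other 8 genes differed by less than 1.5-fold. Nfe2l2 was at 106.3 CPM (101.1 to 111.7) and 122.0 CPM (116.9 to 127.2), higher in smoke with a ratio of 1.15 (1.08 to 1.23), and Txnrd1 at 77.4 and 70.7 CPM was lower, with 0.913 (0.842 to 0.990). Gclc, Gclm, Keap1, Bach1, Hmox1 and Nqo1 had intervals that held 1. Handling genes summed to 1826 and 2567 CPM and mitochondrial transcripts to 19800 and 11330 CPM in the same nuclei, and their part in the result was not tested.

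In smooth muscle-like nuclei 1 of 10 genes was at least 1.5-fold higher in smoke, where 13.3% of 14060 genes were higher and 4.08% lower, and none of the 10 was lower. This was Nqo1, with 6 and 25 UMIs and a ratio of 2.06 (0.823 to 6.13) that spans 1. Slc7a11 came to 6.55 CPM (4.66 to 8.95) and 8.86 CPM (7.26 to 10.7), a ratio of 1.35 (0.930 to 2.01). As in the endothelium, few nuclei carried it, since 5 smoke nuclei held 53 of the 107 UMIs. Those 5 nuclei held smooth muscle markers at 1500 to 4390 CPM, below the 6680 CPM of their class, and macrophage markers at 1100 to 3900 CPM, above its 791 CPM. Txnrd1 and Bach1 were slightly lower in smoke, with ratios of 0.846 (0.747 to 0.958) and 0.878 (0.784 to 0.984).

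In fibroblast-like nuclei 7 of the 10 genes had enough UMIs, and Hmox1, Nqo1 and Srxn1 did not. None of the 7 passed 1.5-fold between smoke and room air, where 17.2% of 11638 genes were higher and 5.10% lower. Nfe2l2 and Bach1 differed by less than that fold, and Keap1, at 18.8 and 17.5 CPM, overlapped. Bach1 was at 45.05 CPM (35.9 to 55.8) in room air, 66.3 CPM (58.5 to 74.9) in smoke and 69.6 CPM (56.5 to 84.9) in the aneurysm library, and Nfe2l2 at 123.4 CPM (107.9 to 140.4), 170.0 CPM (157.3 to 183.5) and 188.8 CPM (166.6 to 213.0). Both smoke-exposed libraries lay above room air without overlap, with smoke ratios of 1.47 (1.15 to 1.91) for Bach1 and 1.38 (1.18 to 1.61) for Nfe2l2. Beside them, the 14 macrophage markers summed to 644.7, 1237 and 364.6 CPM in fibroblast-like nuclei, with none at 0, and mitochondrial transcripts to 11070, 5347 and 9951 CPM. Their part in these levels and ratios was not tested. Against room air 2 of 7 genes were at least 1.5-fold higher in the aneurysm library and 2 lower, where 18.7% of genes tested were higher and 12.8% lower. Bach1 (1.55, 1.14 to 2.10) and Nfe2l2 (1.53, 1.28 to 1.83) were higher, and Gclc (0.453, 0.349 to 0.584) and Txnrd1 (0.655, 0.481 to 0.883) lower.

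Over all nuclei, none of the 10 genes was higher in smoke and 1 lower, Hmox1 with a ratio of 0.583, where 13.9% of genes were higher and 3.94% lower. In cluster 2, 1 of 9 genes was at least 1.5-fold higher in smoke and none lower, where 10.3% of genes were higher and 5.82% lower. It was Srxn1, at 3.64 and 7.17 CPM, with a ratio of 1.97 (1.17 to 3.45). Slc7a11 there had a ratio of 1.29 (1.17 to 1.41), opposite to the macrophage-like nuclei. Cluster 2 scored nearest the macrophage class, so this contrast and the macrophage-like Slc7a11 ratio depend on where its nuclei are placed. In T or NK-like nuclei 3 of 7 genes were higher, where 15.8% of genes were higher and 10.3% lower: Keap1, with 6 and 53 UMIs, at 2.60 (1.12 to 7.40), Txnrd1 at 1.65 (1.15 to 2.44) and Slc7a11 at 1.62 (0.817 to 3.56). The macrophage markers in these nuclei stood at 39.0% and 46.4% of their macrophage-like level, so free or mixed macrophage RNA was high there, and its part in the result was not tested. In cluster 11, 1 of 6 genes was higher and 1 lower, where 19.1% of genes were higher and 11% lower. Gclm was higher at 2.49 (1.07 to 7.11), from 6 and 50 UMIs. Keap1 was lower at 0.572 (0.338 to 0.992), from 23 and 44 UMIs. Cluster 10, unnamed and led by Ccdc148 and Il1rn, had none of 9 genes higher and 4 lower in smoke, where 14.1% of genes were higher and 6.77% lower. They were Hmox1 at 30.8 and 16.0 CPM (ratio 0.518, 0.335 to 0.808), Gclm at 0.591 (0.393 to 0.895), Keap1 at 0.594 (0.403 to 0.883) and Txnrd1 at 206.5 and 136.0 CPM (ratio 0.659, 0.564 to 0.771). Mitochondrial transcripts summed to 13760 and 5410 CPM there, and their part was not tested. Cluster 10 carried markers of several classes. In room air and smoke its macrophage markers summed to 4303 and 4834 CPM, fibroblast markers to 1112 and 1135 CPM and endothelial markers to 961 and 1172 CPM. In room air macrophage-like nuclei the latter 2 lists summed to 104.6 and 129.9 CPM. Whether cluster 10 holds mixed droplets was not tested. Cluster 1 had 1 of 9 genes higher, Srxn1 at 2.67 (1.43 to 5.38), and 2 lower, where 22.1% of genes were higher and 7.5% lower. The lower ones were Hmox1, at 75.0 and 18.1 CPM, and Slc7a11, at 214.9 and 63.0 CPM, but single room air nuclei held 29 of the 81 and 104 of the 232 UMIs.

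Between the aneurysm and the smoke library, macrophage-like nuclei had more Hmox1 and less Nfe2l2, Txnrd1 and Slc7a11. By the 1.5-fold rule 2 of 10 genes were higher and 3 lower, where 23.3% of 14428 genes were higher and 18% lower, so neither count stood far from the genes at large. Hmox1 was at 18.4 CPM in smoke and 36.2 CPM (26.8 to 47.7, from 50 UMIs) with an aneurysm. The aneurysm library was higher without overlap, with a ratio of 1.96 (1.44 to 2.61), and it overlapped room air at 34.4 CPM. When the libraries were clustered one by one this ratio was 1.05. Nqo1, with 2 UMIs in the aneurysm library, gave 1.81 (0.211 to 6.98), which spans 1. Nfe2l2 was at 438.1 CPM (432.3 to 444.1) in smoke and 291.4 CPM with an aneurysm, a ratio of 0.665 (0.601 to 0.734) that lay at the edge of the 1.5-fold rule. Txnrd1 was at 194.4 and 122.2 CPM (104.5 to 142.1), a ratio of 0.629 (0.537 to 0.732). Slc7a11 was at 34.75 and 13.01 CPM (7.71 to 20.6), a ratio of 0.375 (0.221 to 0.594). In these 3 genes the aneurysm library was lower without overlap. With the libraries clustered one by one all 3 ratios came inside 1.5-fold, at 0.86 for Nfe2l2, 0.872 for Txnrd1 and 0.765 for Slc7a11. The intervals of the remaining 5, from Keap1 (1.25, 0.913 to 1.68) to Srxn1 (0.699, 0.333 to 1.30), held 1.

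The clusters that made up the class differed between these libraries. Cluster 12 held 1751 of 4565 smoke nuclei and 185 of 658 aneurysm nuclei, and cluster 19 held 210 and 335, so most aneurysm nuclei came from a cluster that was small in smoke. Txnrd1 in cluster 19 was 55.4 and 52.3 CPM and in cluster 12 it was 236.6 and 223.3 CPM (ratio 0.944, 0.760 to 1.16), so within each cluster the libraries overlapped. Nfe2l2 was lower within both, with ratios of 0.689 (0.575 to 0.818) in cluster 12 and 0.666 (0.531 to 0.830) in cluster 19. Hmox1 overlapped within cluster 12, at 26.4 and 28.8 CPM, and was higher in cluster 19, at 28.2 and 54.1 CPM (ratio 1.92, 1.12 to 3.30, from 30 and 30 UMIs). Slc7a11 was lower in both, at 49.9 and 28.8 CPM in cluster 12 and 15.0 and 7.21 CPM in cluster 19, with intervals that span 1 (0.298 to 1.01 and 0.117 to 1.49). Mitochondrial transcripts of macrophage-like nuclei summed to 3091 and 8066 CPM, and the median nucleus held 8715 and 1557.5 UMIs. The part of either in these values was not tested.

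In endothelial-like nuclei of the aneurysm library 1 of 10 genes was higher than in smoke and 2 lower, where 10.7% of 14213 genes were higher and 20.8% lower. Slc7a11 was lower at 0.421 (0.232 to 0.706), against the smoke library with its few high nuclei, and 1.58 after thinning. Srxn1, with 2 UMIs left, gave 0.320 (0.0376 to 1.22), and Nqo1, at 2.18 and 3.93 CPM, gave 1.81 (0.769 to 3.79), and both span 1. Nfe2l2 (122.0 and 119.8 CPM), Gclm (41.7 and 47.6 CPM) and Gclc (37.0 and 34.1 CPM) overlapped. Smooth muscle-like nuclei had none higher and 2 lower, where 12.5% of 13277 genes were higher and 20.6% lower. These were Srxn1, with 24 and 1 UMIs, at 0.432 (0.0105 to 2.65) and Slc7a11 at 0.581 (0.209 to 1.31), and both span 1. Nfe2l2 was at 95.5 and 71.2 CPM there, a ratio of 0.746 (0.590 to 0.933).

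Fibroblast-like nuclei of the aneurysm library had less Gclc than those of the smoke library. None of 7 genes was higher and 1 was lower, where 14.7% of 11555 genes were higher and 20.5% lower. Gclc stood at 131.4 CPM in room air, 112.2 CPM in smoke and 59.6 CPM (47.5 to 73.9) in the aneurysm library. The aneurysm library lay below both others without overlap, and its ratio to smoke was 0.531 (0.415 to 0.673). High single nuclei were part of it, since the top nucleus held 48, 93 and 4 UMIs and the 5 highest held 93 of 245, 175 of 435 and 14 of 83. In those top nuclei of room air and smoke, fibroblast markers summed to between 6740 and 27400 CPM, around or above the 10000 and 9870 CPM of their class, and macrophage markers to at most 968 CPM. After thinning, 10.2%, 5.77% and 4.87% of nuclei held a Gclc UMI, so on that scale room air stood apart and smoke lay near the aneurysm library. Txnrd1 was at 72.0 and 48.1 CPM (ratio 0.668, 0.504 to 0.875), just inside 1.5-fold, and Slc7a11 at 41.0 and 36.6 CPM overlapped.

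Of the remaining classes, cluster 2 had 1 of 8 genes higher and 3 lower in the aneurysm library, where 29.0% of genes were higher and 17.4% lower. Slc7a11 (0.408, 0.223 to 0.688) and Bach1 (0.654, 0.426 to 0.961) were lower, and Keap1 and the higher gene Gclm had intervals that span 1. Nfe2l2 was at 508.7 and 724.8 CPM (ratio 1.43, 1.20 to 1.68), opposite to the macrophage-like nuclei, the class to which cluster 2 scored nearest. Adipocyte-like nuclei, 196 in smoke and 1222 with an aneurysm, had 1 of 8 higher and 2 lower, where 15.9% of genes were higher and 24.0% lower. Slc7a11 was higher, at 14.9 and 24.8 CPM (ratio 1.66, 1.03 to 2.74), and Txnrd1 lower, at 113.8 and 73.1 CPM (ratio 0.642, 0.521 to 0.791). The 14 macrophage markers in these nuclei summed to 1251 and 356.5 CPM, with 1 and 0 of them at 0, and Txnrd1 stood at 58.5% and 59.8% of its macrophage-like level. The part of macrophage RNA in the lower Txnrd1 was not tested. The adipocyte clusters disagreed on Slc7a11: in cluster 22, led by Ucp1 and Ppara, it went from 9.67 to 49.8 CPM (ratio 5.14, 2.48 to 11.99), and in cluster 20 from 21.0 to 10.0 CPM. In cluster 11 none of 7 was higher and 1 lower, Bach1 at 0.543 (0.381 to 0.763), where 12.7% of genes were higher and 17.9% lower.

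The rest of the pathway was read from 9 lists of other genes, and their members are described by counts beside the same background. For macrophage-like nuclei, smoke over room air, that background was 11% of genes tested higher and 4.92% lower. In macrophage-like nuclei of the smoke library the partners and brakes of NRF2 and BACH1 were flat, with 0 of 10 past 1.5-fold and a median log2 ratio of 0.03. Of the glutathione genes 3 of 14 were higher and 1 lower, of the thioredoxin and peroxiredoxin genes 1 of 9 was higher and 1 lower, and none of 6 NADPH genes, 11 detoxification genes or 5 AHR targets passed the fold. AHR is the receptor for aromatic compounds of smoke. Prdx1, a peroxiredoxin, was lower at 325.5 and 178.7 CPM (ratio 0.549, 0.533 to 0.565), as Hmox1 was. Gpx1, a glutathione peroxidase, was higher at 54.3 and 95.9 CPM (ratio 1.77, 1.67 to 1.87). Of the iron and haem genes 3 of 10 were higher and 1 lower. The ferritin chains Fth1 (142.0 and 309.6 CPM, ratio 2.18, 2.11 to 2.26) and Ftl1 (215.0 and 442.0 CPM, ratio 2.06, 2.00 to 2.11), which store iron, went opposite to Hmox1, which releases it from haem. Ferritin was not particular to macrophages, since the Fth1 ratio was 2.40 in endothelial-like, 2.54 in smooth muscle-like and 2.65 in fibroblast-like nuclei. Of the ATF4 stress genes 4 of 13 were higher and none lower, and of the handling genes 7 of 15 were higher and 1 lower, with a median log2 ratio of 0.50.

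In endothelial-like nuclei of the smoke library the median log2 ratios of the glutathione, thioredoxin and iron lists were 0.27, 0.33 and 0.28, beside 0.09 for all genes and 0.73 for handling genes. Glutathione genes had 4 of 12 higher and none lower (Gpx1, Mgst3 and Gstm2 first), thioredoxin and peroxiredoxin genes 3 of 9 (Prdx2, Txnip and Prdx5), and iron genes 3 of 10. Among all genes tested there, 13.8% were higher and 3.43% lower. In the aneurysm library against smoke the same lists had 6 of 12, 4 of 9 and 3 of 10 genes lower, and 0, 1 and 2 higher. In that comparison 20.8% of all genes tested were lower and 10.7% higher. The NRF2 and BACH1 partners had 5 of 10 lower and none higher, among them Bach2 (276.6 and 122.8 CPM) and Sqstm1 (60.0 and 35.8 CPM), whose product sequesters KEAP1. These comparisons share the smoke library, so their directions are not independent. Me1 and Tkt, which supply NADPH, were higher with an aneurysm, at 83.3 and 165.6 CPM and at 17.03 and 29.72 CPM. Me1 is abundant in fat cells, and the 9 adipocyte markers in endothelial-like nuclei summed to 115.9 and 254.8 CPM, with none at 0. Their part in the Me1 and Tkt values was not tested.

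In macrophage-like nuclei the aneurysm library against smoke had the glutathione reductase Gsr at 108.3 and 57.8 CPM (ratio 0.534, 0.423 to 0.666) and Txn1 at 106.3 and 50.6 CPM (ratio 0.476, 0.371 to 0.603), both lower like Txnrd1. Me1 was higher at 2.57 and 53.5 CPM and Cd163, the scavenger of haemoglobin and a marker of cluster 19, at 11.1 and 188.7 CPM. Of the 5 AHR targets tested 4 were higher and 1 lower, where 23.3% of all genes tested were higher and 18% lower. Nqo1 was among the 4 with its 2 UMIs, and Ahr itself was at 9.71 and 32.5 CPM (ratio 3.35, 2.41 to 4.56). Adipocyte-like nuclei made up 1.40% of the smoke and 21.4% of the aneurysm library, and adipocyte markers summed to 600.5 and 503.9 CPM in macrophage-like nuclei. They already summed to 519.2 CPM there in room air, where 35 adipocyte-like nuclei were found, so this sum cannot gauge free adipocyte RNA. Whether RNA of other cells enters these values was not tested. In fibroblast-like nuclei Ugdh, which makes UDP-glucuronate, was higher at 123.6 and 658.2 CPM (ratio 5.33, 4.76 to 5.96), and Gpx3 at 28.4 and 87.6 CPM (ratio 3.09, 2.37 to 4.03).

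Likeness across classes was measured as Pearson's r of log2(CPM + 1) over 35 points, each a class in a library with at least 50 nuclei, among 11498 genes. The points share libraries and depth, so the values are descriptions. The genes most like Nfe2l2 were Clec5a (0.949), Sirpa (0.933) and Acp2 (0.933), and those most like Txnrd1 were Tbc1d23 (0.932), Clec5a (0.927) and Atp6v1b2 (0.918). For Hmox1 they were Ercc6 (0.901), Plxna1 (0.898) and Atp6v1b2 (0.894), and for Slc7a11 Emilin2 (0.876), a leading gene of cluster 2. Bach1 was most like Dnajb14 (0.889), Gclm like Ctnnb1 (0.855) and Srxn1 like Psmb6 (0.842). Keap1, Gclc and Nqo1 had no close match, with best values of 0.733, 0.746 and 0.757. Among the 10 genes themselves, Txnrd1 with Nfe2l2 (0.913), Txnrd1 with Hmox1 (0.847) and Hmox1 with Nfe2l2 (0.822) were the closest pairs, and Gclc with Nqo1 was the least alike (-0.321).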

How the data were processed

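The deposited values were raw UMI counts per gene and barcode, without normalisation, from single nuclei of 3 libraries, 1 per group. The matrices were written by cellranger 8.0.1 per the file headers, while Cell Ranger 2.2.0 is named in the submitters' processing notes, beside STAR and the mm10 build. The conflict was not resolved, so no coordinates of these features are given. Whether strand was used and introns were counted was not given in the sources used here. UMIs of a gene and of one that overlaps it or runs antisense to it can therefore be mixed.

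Barcodes with at least 500 UMIs, 300 genes and under 5% mitochondrial UMIs were kept. Counts scaled to 10000 per nucleus were log-transformed (scanpy 1.11.5), and 2000 variable genes chosen within libraries, 30 principal components and 20 neighbours gave 23 Leiden clusters at resolution 1 (igraph 0.11.9), without batch integration because library and group coincide. A cluster was named where its marker score reached 0.5 and led the next class by 0.4 (a margin raised after the data were seen), where at least 3 markers were found in 5% of its nuclei, and where foreign markers did not outnumber its own among the top 10 genes. Clusters 1, 2, 6, 10 and 11 stayed unnamed and held 5.88%, 13.3%, 6.10%, 1.19% and 0.998% of the room air library, 6.25%, 11.0%, 5.59%, 1.71% and 1.82% of the smoke library and 9.57%, 1.84%, 13.8%, 0.140% and 8.83% of the aneurysm library.

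UMIs were summed per class and library. Intervals at 95% are exact Poisson for CPM, Clopper-Pearson for shares and, for a ratio of CPM, conditional binomial and exact (scipy 1.17.1). A class needed 50 nuclei in both libraries, a gene 20 UMIs in both together, and a count of 0 allows up to 3 UMIs. A gene past 1.5-fold was counted. The ratios were run on Poisson counts simulated with known folds, the model that the intervals assume. That run checks the arithmetic only, since it holds no clumping of UMIs in single nuclei. The 10 genes are always named. Of the other lists up to 3 genes per list, class and comparison could be named, those past 1.5-fold whose interval leaves out 1, ranked by the bound nearest 1. For likeness, genes needed 500 UMIs and classes 100000. The genes and lists were chosen with earlier results of these data known. The alternatives changed the clustering, the barcode and gene filters, doublet scores, centring, depth and the highest nucleus.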

Additional observations from a re-analysis of the deposited data

Results flagged for a closer look

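For 6 genes the libraries differed by at least 1.5-fold in opposite directions in different classes or unnamed clusters, with counting intervals that leave out 1 on both sides. None of these differences between classes was tested, since each group is 1 library. In smoke over room air, Keap1 had a ratio of 2.60 in T or NK-like nuclei, from 6 and 53 UMIs, and of 0.572 in cluster 11 and 0.594 in cluster 10. Gclm had 2.49 in cluster 11, from 6 and 50 UMIs, and 0.591 in cluster 10. Txnrd1 had 1.65 in T or NK-like nuclei and 0.659 in cluster 10. Cluster 10 carried markers of several classes, as given above. Slc7a11 had 2.78 in endothelial-like nuclei and 0.293 in cluster 1, and in both few nuclei held many of the UMIs. In aneurysm over smoke, Slc7a11 had ratios of 0.375 in macrophage-like nuclei, 0.408 in cluster 2, 0.421 in endothelial-like nuclei and 0.321 in cluster 1, and of 1.66 in adipocyte-like nuclei. In aneurysm over room air, Nfe2l2 had 0.627 in macrophage-like and 1.53 in fibroblast-like nuclei, and Bach1 had 1.55 in fibroblast-like nuclei and 0.624 in cluster 1.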

How the results depend on the processing

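No paired analysis was possible because each group has 1 library. Of 208 recounts of the genes past 1.5-fold in 4 classes, 157 lay within 1.5 times the reported count and 51 did not. Of 15 gene ratios past 1.5-fold, 7 kept their direction and 3 stayed past the fold under every alternative run. These were Srxn1 in endothelial-like nuclei in both comparisons (1.56 to 2.46 and 0.191 to 0.601) and Gclc in fibroblast-like nuclei with an aneurysm (0.386 to 0.643). Srxn1 gave no ratio after thinning, nor within cluster 9 for smoke over room air. Its aneurysm ratio rests on 2 UMIs and spans 1, and both Srxn1 ratios share the smoke library. For Gclc only the single highest nucleus was taken out. Without the 5 highest, 260 UMIs remained in smoke and 69 with an aneurysm, in fibroblast-like totals of 3875842 and 1393264 UMIs. On these totals the aneurysm library was still lower but inside 1.5-fold, so the call for Gclc depended on a few nuclei. The causes of the changes below were not tested. Of 72 list medians, 28 kept 1 sign.

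Macrophage-like, smoke over room air: genes lower were 2 with a minimum of 1000 UMIs and after thinning, and the Hmox1 log2 ratio was 0.00898 within cluster 5 and 0.0632 within cluster 19. Aneurysm over smoke: genes higher were 1 at resolution 2, without barcode filters, at 50 UMIs and without the top nucleus, genes lower were 1 at resolution 0.5, with 15 components and without the mitochondrial limit and 0 where each library was clustered alone, and the log2 ratio was -0.683 for Hmox1 within cluster 5 and, for Nqo1, -0.258 at resolution 2 and -0.0711 without the top nucleus.

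Endothelial-like, smoke over room air: genes higher were 0 after thinning, and the Slc7a11 log2 ratio was -0.415 after thinning and -1.30 within cluster 9. Aneurysm over smoke: genes higher were 0 without the mitochondrial limit, without barcode filters and at 50 UMIs, genes lower were 0 after thinning, and Slc7a11 was 0.66 after thinning.

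Smooth muscle-like, smoke over room air: genes higher were 0 at resolution 0.5, clustered one by one, at 50 UMIs and after thinning, genes lower were 3 clustered one by one and 1 at resolution 2, with 15 components, without the mitochondrial limit, without barcode filters, without the highest Scrublet scores, centred and after thinning, and Nqo1 was -0.15 clustered one by one. Aneurysm over smoke: genes higher were 1 with a minimum of 1000 UMIs and without the highest Scrublet scores and 2 without barcode filters, genes lower were 1 at resolution 0.5 and at 50 UMIs and 0 without the mitochondrial limit and without the highest Scrublet scores, and the log2 ratio was 0.00722 for Srxn1 at resolution 0.5 and, for Slc7a11, 1.09 without the highest Scrublet scores and 0.012 within cluster 13.

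Fibroblast-like, smoke over room air: genes higher were 1 without a gene filter, without the top nucleus and after thinning, and genes lower were 1 at resolution 2 and with 15 components and 2 without a gene filter and after thinning. Aneurysm over smoke: genes higher were 1 without a gene filter and after thinning, and genes lower were 2 at resolution 2, with 15 components, with a minimum of 1000 UMIs, without the mitochondrial limit, without barcode filters, clustered one by one, centred and without the top nucleus. The aneurysm library is shallow, so its low genes, Nqo1 and Srxn1 first, rest on 0 to 12 UMIs a class.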
